A study of Mus musculus with 1483 samples.

Results

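The cells described here are cortical interneurons that read as Lamp5 class and contained RNA of Ndnf, the gene of neuron-derived neurotrophic factor, a secreted protein. They were chosen cell by cell from expression values in counts per 1000000 reads (CPM). A cell counted as Lamp5-gated when Gad1 was at 100 CPM or more, Slc17a7 under 10, Lamp5 at 100 or more, Adarb2 at 10 or more and each of Vip, Sst and Pvalb under 300. It counted as Ndnf-positive when Ndnf was also at 10 CPM or more, and as Ndnf-negative when Ndnf was under 10 CPM. By these values 63 of 1483 cells were Ndnf-positive Lamp5 cells, from 12 of 33 mice, and 90 cells were Ndnf-negative Lamp5 cells.

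All mice are labelled as strain C57Bl/6J and the tissue as VISp, the primary visual area of the cortex. Each mouse carried 1 enhancer in a viral reporter of the yellow fluorescent protein SYFP2. Fluorescent cells were sorted singly and their polyadenylated RNA was sequenced by SMARTer v4, a full-length chemistry. The labels state no age, sex, virus dose or time after delivery. The reporter decided which cells were sampled, so the members are those that an enhancer labelled and not a census of the tissue. Comparisons between Ndnf-positive and Ndnf-negative cells rest on the 6 mice with at least 3 cells of each kind. These were the eHGT_019h mice MouseID-392043, MouseID-400156 and MouseID-401668 and the hDLXI56i mice MouseID-382159, MouseID-384912 and MouseID-400157, and values per mouse are given in this order. hDLXI56i is a human DLX5/DLX6 intergenic enhancer known for activity in forebrain GABAergic neurons.

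Lamp5 interneurons arise mainly in the caudal ganglionic eminence and include the neurogliaform cells, which have short, dense axons and release GABA onto many neighbours at once. In mouse cortex, Ndnf marks interneurons of the outermost layer, where they inhibit the apical dendrites of pyramidal cells, and many of these cells also secrete reelin and neuropeptide Y. Cells of the Lamp5 class without Ndnf lie more often in deeper layers.

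Reln, the gene of the extracellular glycoprotein reelin, reached 10 CPM in 59 of 63 Ndnf-positive cells and in 31 of 90 Ndnf-negative cells. Both other markers given for these cells were mostly absent. Htr3a, the ionotropic serotonin receptor of interneurons from the caudal eminence, reached 10 CPM in 7 of 63 Ndnf-positive and 7 of 90 Ndnf-negative cells, and Egln3, an oxygen-sensing prolyl hydroxylase, in 8 of 63 Ndnf-positive and 2 of 90 Ndnf-negative cells. Gad2, a GABA-synthesising enzyme, did not separate the classes and averaged 2182.4 ± 374.6 CPM in Ndnf-positive and 2385 ± 383.8 CPM in Ndnf-negative cells (SD, n = 6 mice, here and below).

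The threshold on Ndnf fell in a sparse part of its range. The members just inside it had 15.8 and 17.7 CPM, and the cells just outside it 9.92 and 9.01 CPM. Of the 63 members, 8 lay between 10 and 50 CPM, 7 between 50 and 100 CPM and 48 at 100 CPM or more, while 86 of the 90 Ndnf-negative cells were listed at 0. The members had a median of 582423 reads (104019 to 730492) and 8900 detected genes, against 564779.5 reads (67222 to 769304) and 8955.5 genes in Ndnf-negative cells. In the median member 1 read was worth 1.72 CPM, and in the shallowest 9.61 CPM, while the shallowest Ndnf-negative cell had 1 read at 14.9 CPM. Over the 6 mice the median number of detected genes differed by -146.75 (Ndnf-positive minus Ndnf-negative cells), which did not pass an exact permutation test by sign flips (2-sided p = 0.531, higher in 2 of 6 mice).

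Markers of other cell types were at low levels in the members. Lhx6 and Nkx2-1, transcription factors of interneurons from the medial eminence, reached 10 CPM in 0 of 63 Ndnf-positive cells, and in 5 and 2 of 90 Ndnf-negative cells. Sncg, which defines a neighbouring interneuron class, reached 100 CPM in 1 Ndnf-positive and 0 Ndnf-negative cells. Of the 10 glutamatergic markers Slc17a6, Neurod6, Neurod1 and Tbr1 were at 0 in every Ndnf-positive cell, and the list summed to between 4.40 and 59.9 CPM per mouse in Ndnf-positive cells and to between 4.57 and 52.05 CPM in Ndnf-negative cells. The 8 astrocyte markers summed to between 12.5 and 233.5 CPM per mouse (median 106.8) in Ndnf-positive cells and to between 209.4 and 371.2 CPM (median 257.4) in Ndnf-negative cells, with Aldoc, a glycolytic enzyme, as the main part at 100.9 ± 79.1 CPM in Ndnf-positive and 247.8 ± 62.1 CPM in Ndnf-negative cells. Aqp4 and Aldh1l1 were at 0 in every Ndnf-positive cell, and Aldh1l1 and Slc7a10 in every Ndnf-negative one. The part of this in the differences below was not tested.

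The members came from few of the enhancers. eHGT_019h gave 40 of the 63, with 12, 13 and 15 cells from its 3 mice, and hDLXI56i gave 15, with 4, 5 and 6. Another 4 came from eHGT_058h, 2 from eHGT_017h and 1 each from eHGT_023h and eHGT_140h. In eHGT_019h the members made up 25%, 37.1% and 33.3% of all cells of a mouse, a mean of 31.8% ± 6.21 (SD, n = 3), against 1.69% in the mice of the other enhancers. This difference passed a 2-sided exact permutation test over mice, adjusted over the 11 enhancers (adjusted p = 0.00202, with a raw p of 0.000183, the smallest that the 5456 assignments allow). In hDLXI56i the share was 10.6% ± 2.13 (n = 3) against 3.82% in all other mice (adjusted p = 0.754 by exact permutation, not passed). The other mice here include those of eHGT_019h. The hDLXI56i mice had 8.51%, 10.4% and 12.8%, and the highest mouse outside these 2 enhancers, an eHGT_058h mouse, had 5.13%. The mice of eHGT_064h, eHGT_078h, eHGT_079h, eHGT_082h and eHGT_128h, 15 in number, gave 0 members among 700 cells, which allows a share of up to 0.429%, counting error alone considered.

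How many of the Lamp5-gated cells contained Ndnf could not be told apart between the enhancers. Members were 31.6%, 76.5% and 55.6% of the gated cells in the eHGT_019h mice (mean 54.5% ± 22.5) and 18.2%, 27.8% and 46.2% in the hDLXI56i mice (mean 30.7% ± 14.2). The difference was 23.8 percentage points, with an exact permutation p of 0.2 where 0.1 is the smallest that 3 mice against 3 allow. In both eHGT_058h mice with at least 3 gated cells the share was 33.3%. An exact permutation test across the 3 enhancers and 8 mice gave p = 0.261. With 13 to 38 gated cells per eHGT_019h or hDLXI56i mouse, a single share is loose, as in the eHGT_019h mouse MouseID-400156, whose 95% Wilson interval ran from 52.7% to 90.4%.

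**Figure D1:**
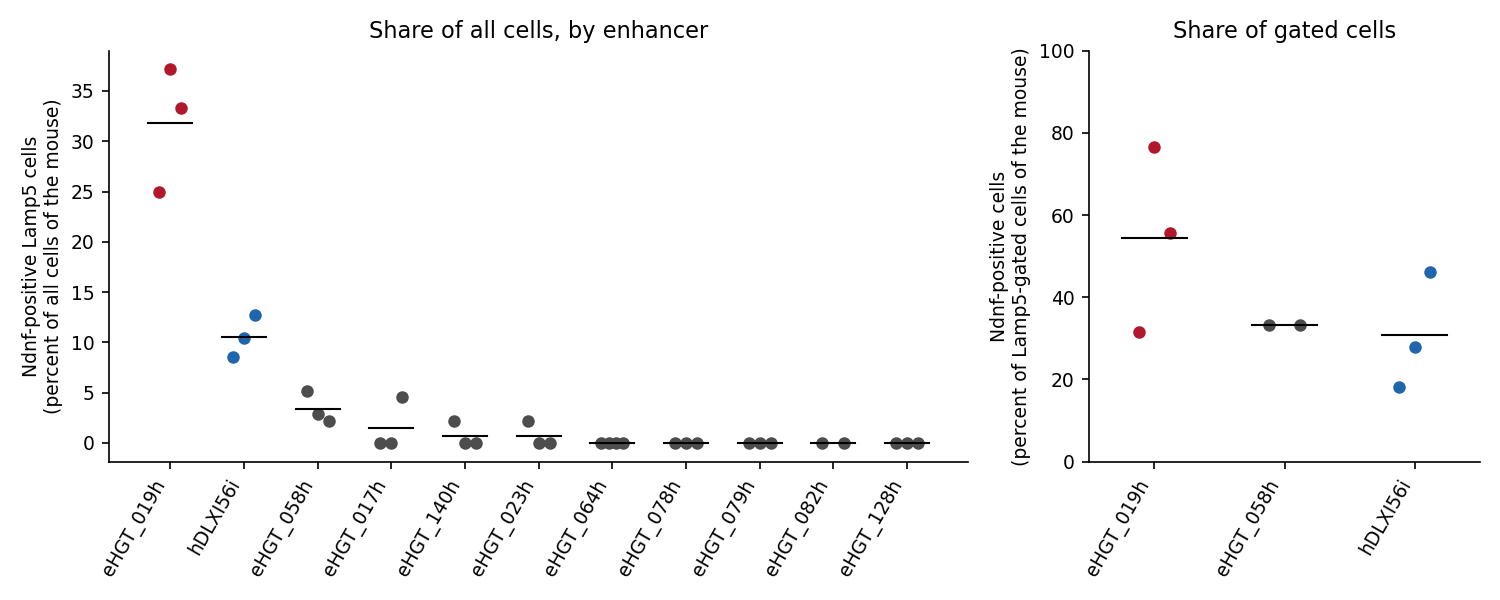
Left, Ndnf-positive Lamp5 cells as a percent of all cells, 1 point per mouse for the 11 enhancers, with a line at each mean. Right, the same cells as a percent of Lamp5-gated cells in mice with at least 3 gated cells. The 3 eHGT_019h mice lie between 25% and 37.1% of all cells, above every other mouse, while the shares of gated cells overlap between eHGT_019h and hDLXI56i.

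The main comparison asked which genes go with Ndnf among Lamp5 cells, within mice. Reln, which encodes reelin, the cannabinoid receptor gene Cnr1, the kainate receptor gene Grik1 and 7 of 38 axon guidance and adhesion genes were higher in Ndnf-positive cells, while the A-type channel partner Kcnip2, the secreted protein Nov and the protocadherin Pcdh15 were lower. In all, 56 of 16609 genes tested (0.337%) were called, 40 of them higher (0.241%) and 16 lower (0.0963%). With log2 values averaged over cells in place of CPM, 41 genes were higher and 47 lower. A call needs a size of at least 1 in log2, in either direction, and an adjusted p under 0.05 in a limma test of log2(mean CPM per mouse + 1) with the mouse as a block. The log2 differences below are on this scale, which understates the change of low genes. Without the limit on the size, 95 genes (0.572%) had an adjusted p under 0.05. The direction was the same in every mouse for 55 of the 56 called genes, with Rxfp1 the exception at 5 of 6 mice. The means of the classes did not overlap for 31 of the 56, and for 0.831% of all 16609 genes. The median difference over all genes was -0.04.

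The calls differ in how far they rest on single mice. Of the 56, 16 were called whichever 1 of the 6 mice was left out: Arl4a, Cnr1, Dcc, Elmo1, Grik1, Kcnc2, Kcnip2, Nov, Parm1, Pcdh15, Prkar2b, Rasl11a, Reln, Sema3e, Stmn1 and Zcchc12. The other 40 lost the call without at least 1 mouse, and none of the 56 changed sign. When log2 values were averaged over cells, which gives a single high cell less weight, 48 of the 56 were still called, these 16 among them. With only the 4 mice that had at least 5 cells in each class Reln alone was called, and in the eHGT_019h mice alone Reln and Grik1 were.

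Reelin separated the classes most clearly. Reln (chromosome 5, 21884454 to 22344705, mm10) averaged 457.7, 1054 and 1201 CPM in the Ndnf-positive cells of the eHGT_019h mice and 795, 972 and 1819 CPM in those of the hDLXI56i mice, against 18.9, 45.9 and 126.03 CPM and 10.7, 17.2 and 33.03 CPM in the Ndnf-negative cells of the same mice. Every Ndnf-positive mean was above every Ndnf-negative mean (difference in log2 of 4.97 with SE 0.31, adjusted p = 8.34e-05 by limma). It was called under each of the alternatives tried. Among cells, Reln reached 100 CPM in 56 of 63 Ndnf-positive and in 9 of 90 Ndnf-negative cells. On the list of secreted and matrix proteins Reln was the 1 call among 22 tested genes, beside 0.337% of all genes, with a list median of -0.09. Sema3e and Nov, which are also secreted and were called, are not on this list and are described below. Cxcl14, a chemokine of superficial interneurons, averaged 319.5 ± 220.3 CPM in Ndnf-positive and 14.4 ± 19.2 CPM in Ndnf-negative cells, log2 difference 4.37, and was higher in 5 of 6 mice without passing (adjusted p = 0.313 by limma). Its log2 difference was -5.48 in MouseID-392043 and between 4.12 and 7.76 in the other 5 mice. Over the fits that left out 1 mouse it ranged from 3.69 to 6.34, with adjusted p from 0.000516 to 0.563 by limma. Hapln1, the link protein of perineuronal nets, was at 375.3 ± 142.9 CPM in Ndnf-positive and 532 ± 205.7 CPM in Ndnf-negative cells (adjusted p = 0.276 by limma).

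Axon guidance and adhesion genes were the list with the most calls, and also the list with the most genes tested. The lists were chosen with earlier results of these data known, so their shares of calls are descriptions and were not tested. Of 38 tested, 7 were higher and 0 lower, beside 0.337% of all genes, with a list median of 0.34 against -0.04 over all genes. Dcc (chromosome 18, 71253613 to 72351228), the netrin receptor, averaged 18.7, 123.2 and 79.6 CPM in the Ndnf-positive cells of the eHGT_019h mice and 148.8, 27.3 and 16.3 CPM in those of the hDLXI56i mice, against 0.898, 4.49 and 0 CPM and 3.14, 3.23 and 0.780 CPM in the Ndnf-negative cells of the same mice. The classes did not overlap (difference in log2 of 4.24 with SE 0.54, adjusted p = 0.00705 by limma), although Dcc reached 10 CPM in only 20 of 63 Ndnf-positive cells and 6 of 90 Ndnf-negative cells. In each of the 6 mice 1 cell supplied at least 50.3% of the sum of Dcc over the Ndnf-positive cells, and all of it in MouseID-382159. Sema3e (chromosome 5, 14025276 to 14256689), a secreted repulsive semaphorin, averaged 39.4, 111.1 and 329.5 CPM in the Ndnf-positive cells of the eHGT_019h mice and 110, 212.1 and 304.7 CPM in those of the hDLXI56i mice, against 20.7, 23.03 and 16.4 CPM and 7.28, 34.2 and 36.1 CPM in the Ndnf-negative cells of the same mice. Its lowest Ndnf-positive mean, in MouseID-392043, was close to the highest Ndnf-negative ones (difference in log2 of 2.79 with SE 0.37, adjusted p = 0.00751 by limma), and in MouseID-384912 1 of 5 Ndnf-positive cells supplied 88.2% of the sum, with a mean of 31.26 CPM without it.

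The other guidance genes called were receptors and cell adhesion molecules. Robo1 and Robo2, receptors of the Slit repellents, averaged 213.8 ± 75.4 CPM in Ndnf-positive and 97.99 ± 24.9 CPM in Ndnf-negative cells, log2 difference 1.08, and 470.2 ± 131.7 CPM in Ndnf-positive and 225.3 ± 31.2 CPM in Ndnf-negative cells, log2 difference 1.02. Of the contactins, immunoglobulin-type adhesion molecules of axons, Cntn5 was at 753.9 ± 221.4 CPM in Ndnf-positive and 296.1 ± 87.9 CPM in Ndnf-negative cells, log2 difference 1.34, and Cntn6 at 67.01 ± 28.5 CPM in Ndnf-positive and 13.1 ± 25.4 CPM in Ndnf-negative cells, log2 difference 4.11. The cadherin Cdh9 was at 48.4 ± 37.3 CPM in Ndnf-positive and 4.93 ± 6.62 CPM in Ndnf-negative cells, log2 difference 3.50. Sema3e, Dcc and these 5 were the only members of the list past the test, and Slit2 and Slit3, ligands of the Robo receptors, had means under 6 CPM in both classes. These 5 calls leaned on single mice, and ended for Robo1 without MouseID-392043 (log2 0.9979), Robo2 without any 1 mouse other than MouseID-392043 and MouseID-400156 (log2 0.95 to 0.9998), Cntn5 without MouseID-401668, MouseID-382159 or MouseID-400157 (log2 1.29 to 1.34), Cntn6 without any 1 mouse other than MouseID-392043 and MouseID-400157 (log2 3.58 to 3.96) and Cdh9 without MouseID-401668 (log2 3.56).

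Outside that list, the receptor phosphatases Ptprz1 (chromosome 6, 22875315 to 23052916) and Ptprt (chromosome 2, 161521988 to 162661147) were higher, at 63.7 ± 12.6 CPM in Ndnf-positive and 6.33 ± 5.30 CPM in Ndnf-negative cells, log2 difference 3.61, and 125.9 ± 63.2 CPM in Ndnf-positive and 21.6 ± 28.2 CPM in Ndnf-negative cells, log2 difference 3.17. Lrfn5, a postsynaptic adhesion molecule, was at 110.5 ± 38.05 CPM in Ndnf-positive and 20.9 ± 15.2 CPM in Ndnf-negative cells, log2 difference 2.77, and the protocadherin Pcdh17 at 155.04 ± 98.4 CPM in Ndnf-positive and 19.7 ± 6.48 CPM in Ndnf-negative cells, log2 difference 2.68. The immunoglobulin-domain receptor gene Ildr2 was at 47.9 ± 26.4 CPM in Ndnf-positive and 5.18 ± 4.60 CPM in Ndnf-negative cells, log2 difference 3.22. The adjusted p ranged from 0.0151 to 0.0435 for these 5 genes by limma. Their calls ended for Ptprz1 without MouseID-400157 (log2 3.36), Ptprt without any 1 mouse other than MouseID-401668 and MouseID-400157 (log2 3.09 to 3.41), Lrfn5 without any 1 mouse other than MouseID-392043 (log2 2.32 to 2.98), Pcdh17 without MouseID-401668 or MouseID-384912 (log2 2.47 to 2.62) and Ildr2 without any 1 mouse other than MouseID-401668 and MouseID-384912 (log2 3.10 to 3.22). Cntnap2, Chl1, Ncam2, Dscam and Lingo2 were called higher as well, and are named here after their values were seen. The protocadherin Pcdh15, also outside that list, was called lower and is described below.

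**Figure D2:**
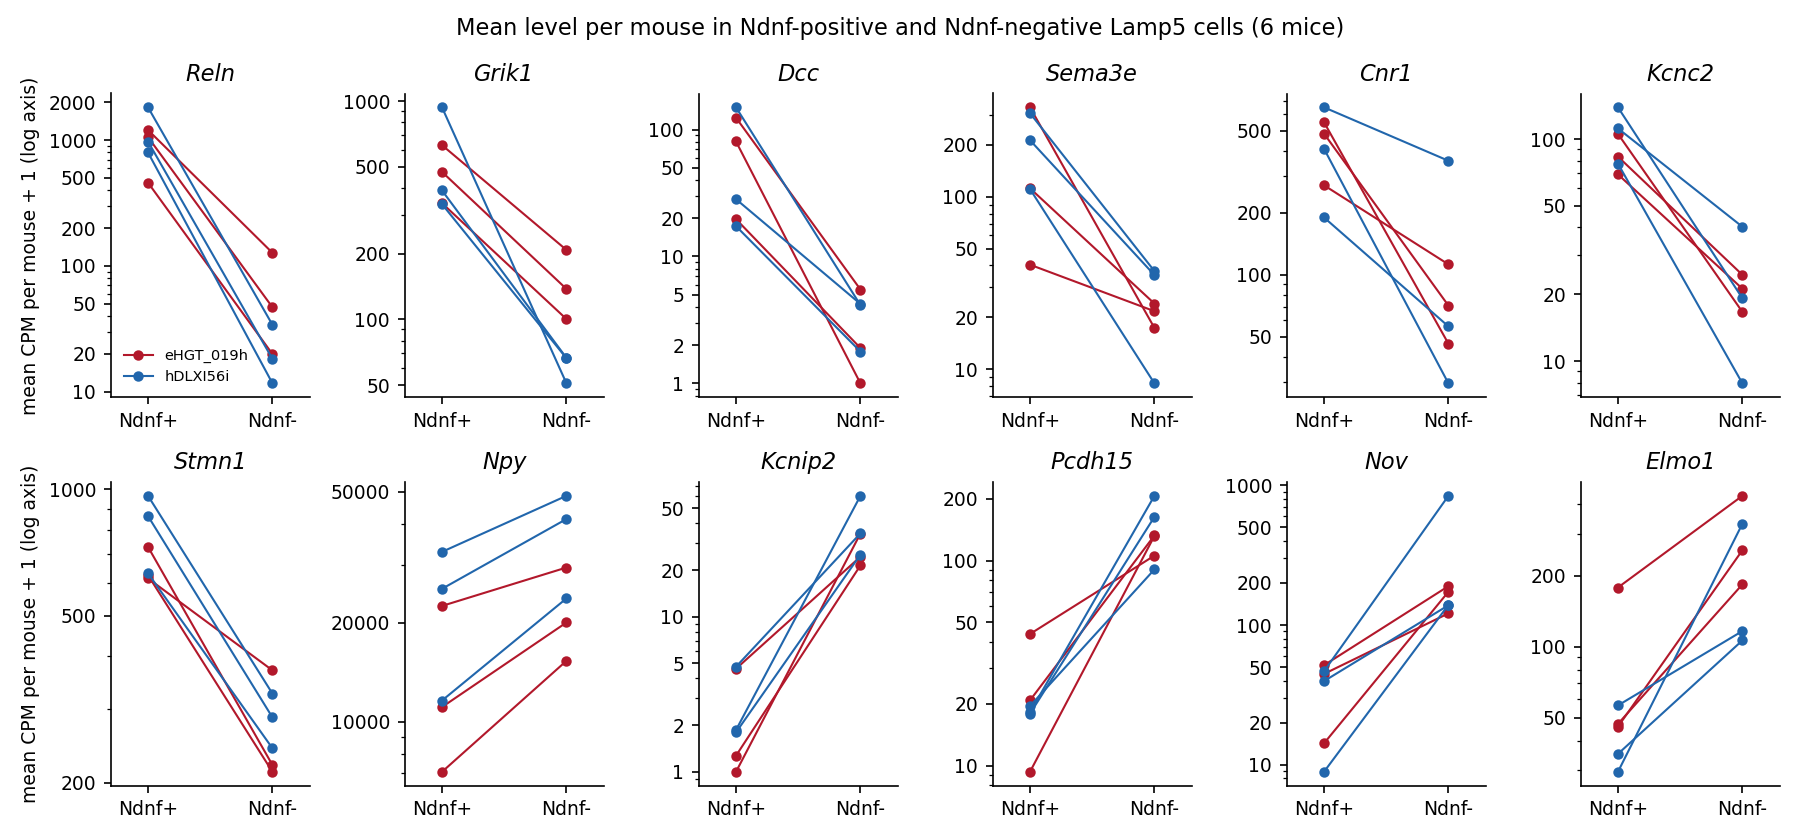
Mean level per mouse (CPM + 1, log axis) of 12 genes in Ndnf-positive cells, left, and Ndnf-negative cells, right, of the same mouse, joined by a line. Red marks the 3 eHGT_019h mice and blue the 3 hDLXI56i mice. Reln, Grik1, Dcc, Sema3e, Cnr1, Kcnc2 and Stmn1 are higher in Ndnf-positive cells of all 6 mice, and Npy, Kcnip2, Pcdh15, Nov and Elmo1 are lower in all 6.

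Of 20 glutamate receptor genes tested 2 were called higher and 0 lower, beside 0.241% and 0.0963% of all genes. Grik1 (chromosome 16, 87895901 to 88290863), the kainate receptor subunit GluK1, averaged 340.4, 628.7 and 474 CPM in the Ndnf-positive cells of the eHGT_019h mice and 389.3, 336.9 and 938 CPM in those of the hDLXI56i mice, against 99.4, 207.3 and 137.01 CPM and 65.7, 65.4 and 49.96 CPM in the Ndnf-negative cells of the same mice. The means did not overlap, and the difference was widest in MouseID-400157 (difference in log2 of 2.37 with SE 0.28, adjusted p = 0.00643 by limma). Every one of the 63 Ndnf-positive cells had Grik1 at 10 CPM or more, against 74 of 90 Ndnf-negative cells. Grin3a, the NMDA receptor subunit GluN3A, was at 59.4 ± 41.98 CPM in Ndnf-positive and 3.34 ± 5.23 CPM in Ndnf-negative cells, log2 difference 3.72, in 36 of 63 Ndnf-positive cells and 10 of 90 Ndnf-negative cells at 10 CPM or more. This call ended without any 1 mouse other than MouseID-392043 and MouseID-384912 (log2 3.26 to 3.57). Grik2, the kainate subunit GluK2, had a small adjusted p but a difference under the limit, at 617.96 ± 204.8 CPM in Ndnf-positive and 329.5 ± 78.3 CPM in Ndnf-negative cells (difference in log2 of 0.87 with SE 0.11, adjusted p = 0.00751 by limma). Gria1, an AMPA receptor subunit, was at 189.9 ± 94.4 CPM in Ndnf-positive and 218.7 ± 145.1 CPM in Ndnf-negative cells (adjusted p = 0.815 by limma). The list's median was -0.01.

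Among receptors for other transmitters each list held at most 1 call, beside 0.337% of all genes. Cnr1 (chromosome 4, 33923171 to 33948831), the presynaptic cannabinoid receptor CB1, averaged 270.5, 549 and 483 CPM in the Ndnf-positive cells of the eHGT_019h mice and 407.7, 188.6 and 647.8 CPM in those of the hDLXI56i mice, against 111.2, 45.2 and 69.8 CPM and 28.7, 55.1 and 355.96 CPM in the Ndnf-negative cells of the same mice. The Ndnf-negative cells of MouseID-400157 reached into the range of the Ndnf-positive means, and within each mouse the Ndnf-positive cells were higher (difference in log2 of 2.34 with SE 0.35, adjusted p = 0.0129 by limma). In MouseID-400157 1 of 7 Ndnf-negative cells supplied 65.4% of the sum, and the mean without it was 143.85 CPM. Among Ndnf-positive cells, 1 of 4 supplied 72.4% in MouseID-382159 and 1 of 5 supplied 54.2% in MouseID-384912. The means without them were 149.9 and 108.04 CPM, still above the Ndnf-negative means of the same mice. In the other mice the highest Ndnf-positive cell supplied 17.4% to 43.6%. Cck, the peptide of the cannabinoid-receptor-bearing basket cells, did not pass, at 220.6 ± 191.99 CPM in Ndnf-positive and 609.6 ± 446.4 CPM in Ndnf-negative cells, log2 difference -1.73 (adjusted p = 0.339 by limma). Rxfp1, the relaxin receptor, was the 1 call among 19 neuropeptide receptors, at 94.8 ± 108.7 CPM in Ndnf-positive and 4.69 ± 7.34 CPM in Ndnf-negative cells, log2 difference 4.39. Its level ranged from 9.84 CPM in MouseID-392043 to 303.1 CPM in MouseID-400157 among Ndnf-positive cells. A single Ndnf-positive cell supplied 90.9% of the sum of Rxfp1 in MouseID-392043, 79.3% in MouseID-382159 and all of it in MouseID-384912. In the other mice the highest cell supplied 20.3% to 41.9%. Chrna4, a nicotinic acetylcholine receptor subunit, was the 1 call among 9 acetylcholine receptors, at 76.4 ± 16.3 CPM in Ndnf-positive and 37.2 ± 9.88 CPM in Ndnf-negative cells, log2 difference 1.04. Htr1f, a serotonin receptor coupled to inhibitory G proteins, was the 1 call among 18 monoamine receptors and was lower, at 24.9 ± 14.7 CPM in Ndnf-positive and 100.9 ± 34.9 CPM in Ndnf-negative cells, log2 difference -2.20. Hcrtr2, an orexin receptor, was at 80.8 ± 23.96 CPM in Ndnf-positive and 156.5 ± 47.8 CPM in Ndnf-negative cells (difference in log2 of -0.94 with SE 0.16, adjusted p = 0.0302 by limma), under the limit on size. The oxytocin receptor gene Oxtr was at 13.2 ± 7.64 CPM in Ndnf-positive and 0.182 ± 0.446 CPM in Ndnf-negative cells, log2 difference 3.18, without passing (adjusted p = 0.0644 by limma). Of 13 GABA receptor genes, 0 passed in either direction. The calls ended for Rxfp1 without any 1 mouse other than MouseID-392043 (log2 3.90 to 4.57), Chrna4 without any 1 of the 6 mice (log2 0.98 to 1.08) and Htr1f without any 1 mouse other than MouseID-400157 (log2 -2.35 to -2.26).

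Of 30 potassium channel genes tested 1 was called higher and 2 lower, beside 0.241% and 0.0963% of all genes, and 27 were not called. Kcnc2 (chromosome 10, 112269898 to 112466304), the fast delayed-rectifier channel Kv3.2, averaged 68.3, 82.4 and 104.5 CPM in the Ndnf-positive cells of the eHGT_019h mice and 76.5, 137.99 and 110.7 CPM in those of the hDLXI56i mice, against 20.2, 23.4 and 15.6 CPM and 6.93, 18.2 and 39.3 CPM in the Ndnf-negative cells of the same mice. The means did not overlap (difference in log2 of 2.29 with SE 0.29, adjusted p = 0.00651 by limma), and in MouseID-384912 1 of 5 Ndnf-positive cells supplied 92.7% of the sum. Kcnip2 (chromosome 19, 45792346 to 45816422), the calcium-binding partner of Kv4 channels that carry A-type current, averaged 0, 0.270 and 3.62 CPM in the Ndnf-positive cells of the eHGT_019h mice and 0.797, 3.76 and 0.860 CPM in those of the hDLXI56i mice, against 33.4, 20.4 and 23.4 CPM and 24.2, 33.5 and 59.2 CPM in the Ndnf-negative cells of the same mice. It was near 0 in the Ndnf-positive cells of all 6 mice (difference in log2 of -3.88 with SE 0.53, adjusted p = 0.00862 by limma), and reached 10 CPM in 6 of 63 Ndnf-positive cells and 44 of 90 Ndnf-negative cells. In MouseID-400156 1 of 4 Ndnf-negative cells supplied all of the sum, so the lower level in that mouse rests on it. In MouseID-400157 1 of 7 Ndnf-negative cells supplied 89.6%, and the mean without it was 7.19 CPM. In the other mice the highest Ndnf-negative cell supplied 13.4% to 37.1%. Kcns3, a silent subunit that modifies Kv2 channels, was at 61.4 ± 17.6 CPM in Ndnf-positive and 152.7 ± 48.5 CPM in Ndnf-negative cells, log2 difference -1.29, a call that ended without MouseID-400156, MouseID-401668 or MouseID-400157 (log2 -1.28 to -1.18). Kcnc1, the related channel Kv3.1, was at 178.8 ± 70.4 CPM in Ndnf-positive and 253.8 ± 24.1 CPM in Ndnf-negative cells and did not pass (adjusted p = 0.188 by limma). Of the 22 sodium, calcium and HCN channel genes 0 passed, while Slc12a4, the potassium chloride cotransporter KCC1, was lower at 1.42 ± 2.71 CPM in Ndnf-positive and 24.02 ± 15.3 CPM in Ndnf-negative cells, log2 difference -3.56, a call that ended without any 1 mouse other than MouseID-392043 (log2 -3.78 to -3.19). Among 10 calcium-binding protein genes Necab1 was the 1 call, at 314.9 ± 162 CPM in Ndnf-positive and 153.2 ± 75.5 CPM in Ndnf-negative cells, log2 difference 1.03, a call that ended without MouseID-382159 (log2 0.99).

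**Figure D3:**
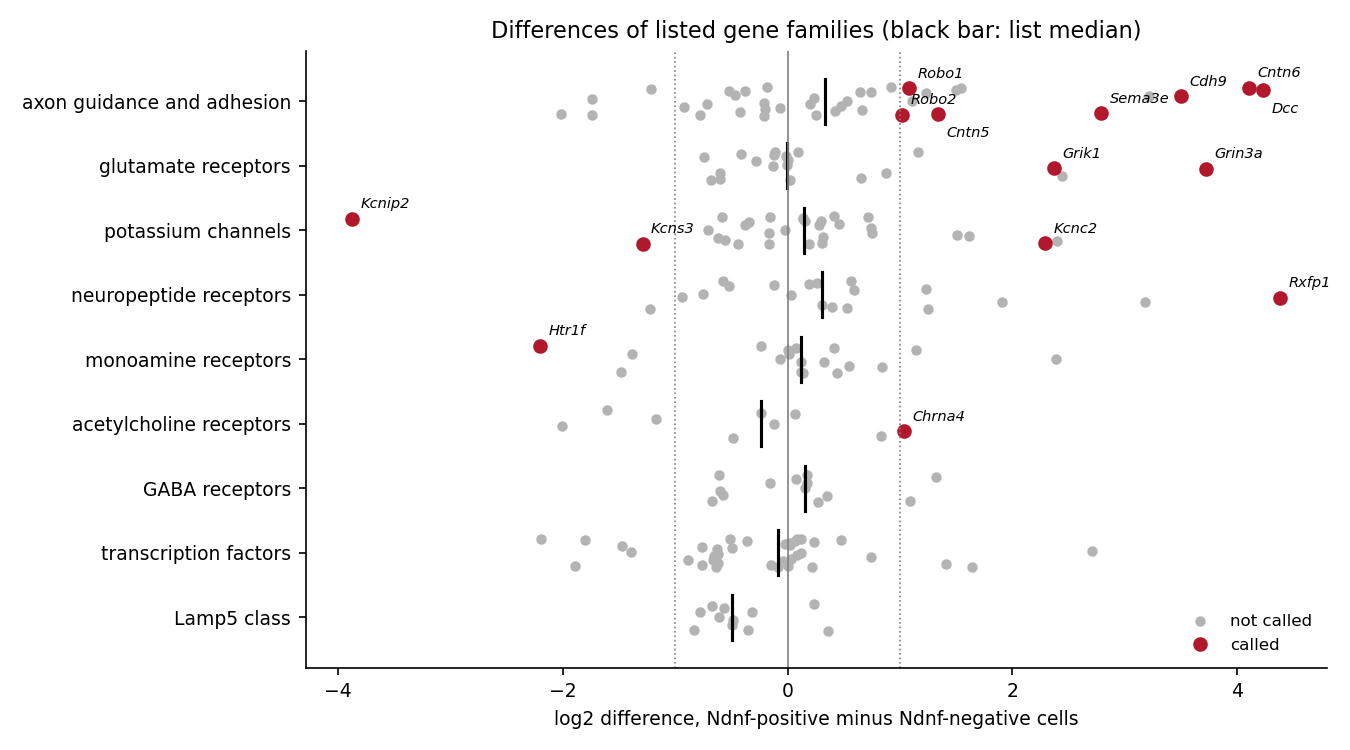
Log2 difference, Ndnf-positive minus Ndnf-negative cells, of each tested gene in 9 lists, 1 point per gene, with called genes in red and named, a black bar at each list's median and dotted lines at the limit of 1. Axon guidance and adhesion genes hold 7 calls, all on the higher side, potassium channels hold calls on both sides, and GABA receptors, transcription factors and Lamp5 class genes hold 0. Over all genes tested, 0.337% were called.

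Besides Kcnip2, the genes called lower whichever mouse was left out were Nov, Pcdh15, Elmo1 and Rasl11a. Nov (chromosome 15, 54745910 to 54753762; Ccn3 in RefSeq), a secreted matricellular protein, averaged 50.5, 13.2 and 43.6 CPM in the Ndnf-positive cells of the eHGT_019h mice and 38.6, 7.89 and 45.6 CPM in those of the hDLXI56i mice, against 188.8, 172.1 and 120.2 CPM and 137.5, 138.3 and 840.3 CPM in the Ndnf-negative cells of the same mice. The classes did not overlap (difference in log2 of -2.81 with SE 0.37, adjusted p = 0.00751 by limma). In the Ndnf-negative cells of MouseID-400157, the highest of the means, 1 of 7 cells at 3504.9 CPM supplied 59.6% of the sum, and the mean without it was 396.2 CPM. Pcdh15 (chromosome 10, 73096277 to 74649831), a protocadherin best known from hair cell tip links, averaged 42.8, 8.31 and 19.8 CPM in the Ndnf-positive cells of the eHGT_019h mice and 18.5, 16.9 and 17.2 CPM in those of the hDLXI56i mice, against 104.7, 130.8 and 131.5 CPM and 89.5, 162 and 205.9 CPM in the Ndnf-negative cells of the same mice. Again the classes did not overlap (difference in log2 of -2.78 with SE 0.32, adjusted p = 0.00595 by limma), with 10 CPM reached in 21 of 63 Ndnf-positive cells and 72 of 90 Ndnf-negative cells. The lack of overlap rests on 1 cell. In MouseID-400156 1 of 4 Ndnf-negative cells supplied 89.6% of the sum, against 13.8% to 30.7% in the other mice. Without that cell the mean was 18.1 CPM, between the Ndnf-positive means of MouseID-400156 (8.31 CPM) and MouseID-392043 (42.8 CPM). Elmo1, which activates the GTPase Rac together with Dock proteins, averaged 46.1, 176.99 and 44.9 CPM in the Ndnf-positive cells of the eHGT_019h mice and 55.4, 34.2 and 28.5 CPM in those of the hDLXI56i mice, against 182.6, 434.2 and 255.1 CPM and 115, 105.3 and 330.5 CPM in the Ndnf-negative cells of the same mice. Both classes were highest in MouseID-400156, so the ranges overlapped while every mouse was lower in its Ndnf-positive cells (difference in log2 of -1.98 with SE 0.28, adjusted p = 0.00945 by limma). Rasl11a, a Ras-like GTPase, was at 70.1 ± 38.7 CPM in Ndnf-positive and 187.2 ± 61.2 CPM in Ndnf-negative cells (difference in log2 of -1.51 with SE 0.19, adjusted p = 0.00651 by limma).

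The other falls among the 15 largest were smaller or less steady. Mmd2, a membrane protein of the progestin and adipoQ receptor family, was at 5.05 ± 7.64 CPM in Ndnf-positive and 25.9 ± 17.2 CPM in Ndnf-negative cells, log2 difference -2.90, and the unconventional myosin Myo16 at 6.45 ± 4.05 CPM in Ndnf-positive and 35.1 ± 14.98 CPM in Ndnf-negative cells, log2 difference -2.37. The phospholipid flippase Atp8a1 was at 75.3 ± 29.1 CPM in Ndnf-positive and 192.2 ± 54.1 CPM in Ndnf-negative cells, log2 difference -1.39, the glutaminyl cyclase Qpct at 96.96 ± 36.6 CPM in Ndnf-positive and 212.5 ± 50.2 CPM in Ndnf-negative cells, log2 difference -1.18, and the diacylglycerol kinase Dgkg at 96.4 ± 38.3 CPM in Ndnf-positive and 210.6 ± 78.7 CPM in Ndnf-negative cells, log2 difference -1.12. Chn2, a Rac-inactivating chimaerin, was at 86.5 ± 36.5 CPM in Ndnf-positive and 179.4 ± 83.1 CPM in Ndnf-negative cells, log2 difference -1.04, and the core fucosyltransferase Fut8 at 71.9 ± 18.1 CPM in Ndnf-positive and 148.3 ± 36.6 CPM in Ndnf-negative cells, log2 difference -1.04. The calls ended for Mmd2 without any 1 of the 6 mice (log2 -3.17 to -2.61), Myo16 without any 1 mouse other than MouseID-400156 and MouseID-384912 (log2 -2.43 to -2.23), Atp8a1 without any 1 mouse other than MouseID-392043 and MouseID-400157 (log2 -1.49 to -1.35), Qpct without any 1 mouse other than MouseID-384912 (log2 -1.28 to -0.9997), Dgkg without any 1 mouse other than MouseID-384912 (log2 -1.20 to -0.92), Chn2 without MouseID-400157 (log2 -0.92) and Fut8 without any 1 mouse other than MouseID-384912 (log2 -1.03 to -0.97). Dhrs3, a retinaldehyde reductase, completed the 16 falls at 2.04 ± 2.33 CPM in Ndnf-positive and 16.7 ± 9.06 CPM in Ndnf-negative cells, log2 difference -2.83, a call that ended without any 1 of the 6 mice (log2 -3.05 to -2.63).

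Stmn1 (chromosome 4, 134468320 to 134473843), the microtubule-destabilising protein stathmin, averaged 612.8, 623.7 and 729 CPM in the Ndnf-positive cells of the eHGT_019h mice and 630.1, 964 and 863 CPM in those of the hDLXI56i mice, against 369.7, 211.5 and 219.5 CPM and 240.8, 325.2 and 285.3 CPM in the Ndnf-negative cells of the same mice. No Ndnf-negative mean reached the lowest Ndnf-positive one (difference in log2 of 1.43 with SE 0.12, adjusted p = 0.000949 by limma). The pseudogene Gm11223, which is identical to a Stmn1 transcript at 449 of its 450 bases, was called too, at 74.3 ± 14.7 CPM in Ndnf-positive and 25.4 ± 6.90 CPM in Ndnf-negative cells, log2 difference 1.53, and reads of this copy and of Stmn1 cannot be told apart here. The call of the pseudogene ended without MouseID-401668 or MouseID-400157 (log2 1.43 to 1.53). Arl4a, an Arf-like GTPase, was at 215.7 ± 69.9 CPM in Ndnf-positive and 56.8 ± 14.1 CPM in Ndnf-negative cells without overlap (difference in log2 of 1.87 with SE 0.27, adjusted p = 0.0107 by limma). Prkar2b, a regulatory subunit of protein kinase A, was at 173.8 ± 54.8 CPM in Ndnf-positive and 75.7 ± 32 CPM in Ndnf-negative cells, log2 difference 1.24, the mucin-like membrane protein Parm1 at 321.02 ± 88.3 CPM in Ndnf-positive and 141.9 ± 35.6 CPM in Ndnf-negative cells, log2 difference 1.16, and the zinc finger protein Zcchc12 at 340.7 ± 146.4 CPM in Ndnf-positive and 133.8 ± 70.2 CPM in Ndnf-negative cells, log2 difference 1.42.

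Fxyd6, a modulator of the sodium pump, was at 307.7 ± 69.6 CPM in Ndnf-positive and 66.95 ± 56.9 CPM in Ndnf-negative cells, log2 difference 2.76, and Apbb1ip, an effector of the GTPase Rap1, at 31.5 ± 16.6 CPM in Ndnf-positive and 4.35 ± 2.14 CPM in Ndnf-negative cells, log2 difference 2.52. The non-coding RNA Pantr1 was at 33.8 ± 13.2 CPM in Ndnf-positive and 6.16 ± 5.0 CPM in Ndnf-negative cells, log2 difference 2.52. Dock5, an exchange factor for Rac, was higher at 13.5 ± 11.2 CPM in Ndnf-positive and 1.28 ± 2.33 CPM in Ndnf-negative cells, log2 difference 2.82. It was the 1 call among 15 tested marker genes of Lamp5 types, beside 0.337% of all genes. The calls ended for Fxyd6 without any 1 mouse other than MouseID-392043 and MouseID-400157 (log2 2.37 to 2.88), Apbb1ip without any 1 mouse other than MouseID-382159 (log2 2.30 to 2.60), Pantr1 without any 1 mouse other than MouseID-384912 (log2 2.24 to 2.66) and Dock5 without any 1 of the 6 mice (log2 2.65 to 2.98). The 5 further genes called higher were Arhgdib, Dlc1, Poglut1, Prps2 and Vrk1.

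Genes that define the Lamp5 class as a whole differed by less than the limit on size. Of 11 tested, 0 were called, beside 0.337% of all genes, and 11 genes are too few to tell 0 from that share. Their median was -0.50, against -0.04 over all genes, with 9 of the 11 differences negative. Npy, the gene of neuropeptide Y, averaged 22513, 7049.9 and 11095 CPM in the Ndnf-positive cells of the eHGT_019h mice and 25378, 32868 and 11612 CPM in those of the hDLXI56i mice, against 29456, 15334 and 20050.0 CPM and 41360.0, 48655 and 23733 CPM in the Ndnf-negative cells of the same mice. Every mouse was lower in its Ndnf-positive cells, while the ranges of the classes overlapped (difference in log2 of -0.78 with SE 0.08, adjusted p = 0.00265 by limma). Id2, an inhibitor of helix-loop-helix transcription factors, was at 1318 ± 223.9 CPM in Ndnf-positive and 1851 ± 223.3 CPM in Ndnf-negative cells (difference in log2 of -0.50 with SE 0.07, adjusted p = 0.0119 by limma). Cplx3, a complexin of transmitter release, was at 896 ± 166 CPM in Ndnf-positive and 693 ± 104.1 CPM in Ndnf-negative cells (adjusted p = 0.0650 by limma), and the receptor kinase gene Kit at 937 ± 324.6 CPM in Ndnf-positive and 798 ± 292.5 CPM in Ndnf-negative cells (adjusted p = 0.552 by limma). Of the 37 transcription factors tested 0 were called, again too few genes to tell 0 from the 0.337% of all genes. Nfib, a nuclear factor of neural development, had 514 ± 117 CPM in Ndnf-positive and 779.9 ± 105.4 CPM in Ndnf-negative cells (difference in log2 of -0.62 with SE 0.09, adjusted p = 0.0141 by limma), under the limit on size but without overlap. Nr2f2, the nuclear receptor COUP-TFII of caudal-eminence interneurons, was at 90.7 ± 39.6 CPM in Ndnf-positive and 27.9 ± 11.6 CPM in Ndnf-negative cells, log2 difference 1.64 (adjusted p = 0.0810 by limma).

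Other markers of Lamp5 types did not pass the test. Lsp1, an actin-binding protein, was at 24.4 ± 18.05 CPM in Ndnf-positive and 92.9 ± 31.4 CPM in Ndnf-negative cells, log2 difference -2.58 (adjusted p = 0.123 by limma), and reached 10 CPM in 22 of 63 Ndnf-positive cells and 71 of 90 Ndnf-negative cells. Pdlim5, a PDZ and LIM domain protein, was at 61.8 ± 27.2 CPM in Ndnf-positive and 8.43 ± 5.94 CPM in Ndnf-negative cells, log2 difference 3.05 (adjusted p = 0.0581 by limma). Mgll, which degrades the endocannabinoid 2-arachidonoylglycerol, was at 415.7 ± 153.1 CPM in Ndnf-positive and 593.4 ± 120.0 CPM in Ndnf-negative cells (difference in log2 of -0.57 with SE 0.10, adjusted p = 0.0323 by limma), the other member of the endocannabinoid and nitric oxide list beside Cnr1 with an adjusted p under 0.05.

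Within the members, the level of Ndnf varied together with that of several genes named above. Ndnf itself averaged 346.3, 609.2 and 579.7 CPM in the eHGT_019h mice and 345.9, 261.7 and 671 CPM in the hDLXI56i mice. Over the 63 cells Spearman's rho with Ndnf was 0.725 for Grik1, 0.637 for Reln, 0.611 for Sema3e, 0.569 for Kcnc2 and 0.503 for Cnr1, and -0.450 for Npy and -0.368 for Nov. For Dcc it was 0.236, and the median of Dcc was 0 CPM in members above and below 50 CPM of Ndnf and in Ndnf-negative cells. These are descriptions over cells that share mice, given with no test, and reads per cell gave -0.01 and detected genes -0.12. In the 55 members with Ndnf at 50 CPM or more the median of Reln was 854.7 CPM, against 147.6 CPM in the 8 members between 10 and 50 CPM and 0 CPM in Ndnf-negative cells. For Grik1 the median was 387.97 CPM at 50 CPM of Ndnf or more, 114.8 CPM between 10 and 50 CPM and 63.5 CPM in Ndnf-negative cells, and for Nov it was 9.86, 42.7 and 127.8 CPM in the same order. Reln was listed at 0 in 4 members, all from 2 mice.

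**Figure D4:**
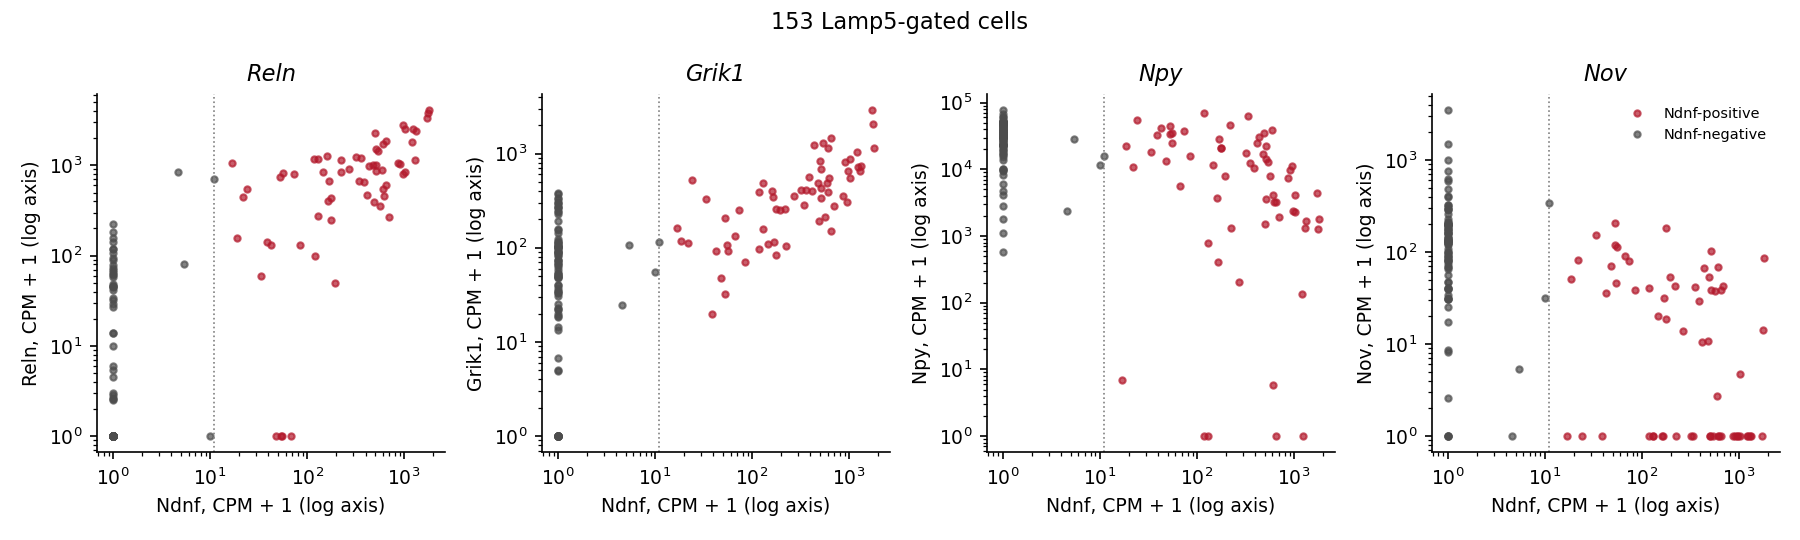
Reln, Grik1, Npy and Nov against Ndnf in all Lamp5-gated cells (CPM + 1, log axes), with Ndnf-positive cells in red, Ndnf-negative cells in grey and the threshold of 10 CPM as a dotted line. Among the 63 red points Reln and Grik1 are higher where Ndnf is higher (Spearman's rho 0.637 and 0.725), Npy and Nov lower (-0.450 and -0.368), and 6 cells lie under 100 CPM of Npy.

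Neuropeptide Y was at or near 0 in a few members. Npy was under 100 CPM in 6 of 63 Ndnf-positive cells and in 0 of 90 Ndnf-negative cells. Of these 6 cells 5 came from the eHGT_019h mouse MouseID-400156 and 1 from an eHGT_140h mouse. One of the 5 also had Sncg at 364.5 CPM, Krt73 at 717.9 CPM, Pax6 at 372.8 CPM and Cck at 2272 CPM, with Kit listed at 0. In the other 4 of this mouse Kit was between 680.6 and 1581 CPM and Sncg was listed at 0. With cells of 100 CPM or more of Sncg left out, 57 genes were called, all 56 of the main comparison among them.

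The Lamp5 cells of mice that did not enter the comparison are given by their medians. These were 8 Ndnf-positive cells of 6 mice and 10 Ndnf-negative cells of 6 mice, too few per mouse for a test. Of the 40 genes called higher, 29 had a higher median in these Ndnf-positive cells, 3 a lower one and 8 equal medians, while of all 16609 genes tested 30.1% had a higher median, 32.2% a lower one and 37.7% equal medians. Of the 16 called lower, 15 had a lower median and 1 equal medians. Reln had a median of 658.3 CPM in the Ndnf-positive and 2.49 CPM in the Ndnf-negative cells, and Stmn1 of 538.9 CPM in the Ndnf-positive and 191.1 CPM in the Ndnf-negative cells. Kcnc2 was among the 3 exceptions, with medians of 7.19 CPM in the Ndnf-positive and 16.3 CPM in the Ndnf-negative cells, as was Chrna4, with 39.3 CPM in the Ndnf-positive and 49.9 CPM in the Ndnf-negative cells.

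Members labelled by different enhancers did not differ detectably. In Ndnf-positive cells of the 3 eHGT_019h mice against those of the 3 hDLXI56i mice 0 of 14508 genes (0.0%) passed a limma test, 821 had an unadjusted p under 0.05, and the lowest adjusted p was 0.831. The genes of smallest p with at least 20 CPM were Ift80, Flna, Fez2, Scrg1, Stt3b and Lingo2. Ift80, an intraflagellar transport protein, averaged 35.9 ± 20.5 CPM in eHGT_019h and 0.531 ± 0.920 CPM in hDLXI56i. Whether the difference between the classes itself depended on the enhancer was tested as well, and 0 of 16609 genes (0.0%) passed, 956 had an unadjusted p under 0.05, and the lowest adjusted p was 0.846 by limma. Reln had the smallest p there. Its log2 difference was 4.52, 4.49 and 3.24 in the eHGT_019h mice and 6.09, 5.74 and 5.74 in the hDLXI56i mice, a difference of -1.77 (SE 0.35, eHGT_019h minus hDLXI56i). Next came Etnk1, Kbtbd2, Ift80, Vstm2a and Ralgps2. With 3 mice of each enhancer, differences within the spread of the mice are not detectable here.

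The genes most like Ndnf over the 12 means, 2 classes in 6 mice, were Ptprz1 (Spearman's rho 0.968), Pcdh10 (0.961), Ncam2 (0.943), Btbd11 (0.936) and Cntnap2 (0.936). These values reflect the split into classes in the first place. Pcdh10, a protocadherin, and Btbd11, a BTB domain protein, were at 74.3 ± 22.1 CPM in Ndnf-positive and 35.6 ± 8.63 CPM in Ndnf-negative cells, and 68.3 ± 31.7 CPM in Ndnf-positive and 25.3 ± 8.49 CPM in Ndnf-negative cells, and neither was called.

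Spans overlap another annotated gene for 30 of the 56 called genes (53.6%), a share near the 49.9% of the 15390 tested genes matched to RefSeq, such as Dhrs3 with Vps13d and Grin3a with Ppp3r2. The labels do not say whether the counting used strand, so reads of overlapping genes cannot be told apart.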

How the data were processed

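Single sorted cells were profiled by SMARTer v4 RNA-seq. The authors deposited CPM (counts per 1000000 reads) per gene and cell, with 45768 genes in 1483 cells of 33 mice. STAR and mm10 are named in the submitters' processing notes, and the use of strand is not given in the sources used here. Dividing by what a single read is worth gave whole reads for 100% of the nonzero values (tolerance 0.01 read).

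CPM were averaged per mouse and class, in mice with at least 3 cells of each class. Genes reaching 1 CPM in 2 or more of the 12 means were tested on log2(CPM + 1) with limma 3.58.1 (R 4.3.3; trend and robust options, mouse as block) with Benjamini-Hochberg adjustment, leaving out the 8 genes of the gates. The classes were split by a transcript of the same libraries. Shares were compared by exact permutation over mice (scipy 1.17.1). No doublet caller was run. The fit was also run on simulated data with normal noise around the Ndnf-negative means. Such noise does not reproduce means carried by a single cell, and no result here rests on that run.

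Named genes were the 15 largest called differences in each direction, plus called genes of the lists. The 15 had to reach 20 CPM in the higher class and differ in the same direction in every mouse, so that agreement was a condition of their choice. Others are said to be named after their values were seen, or belong to lists. The members and the 32 gene lists, with 418 genes, were chosen with earlier results of these data known. Coordinates are those of RefSeq on mm10. Alternatives changed the pseudocount, the filter, the cell minimum, the thresholds, the block and the mice included.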

Additional observations from a re-analysis of the deposited data

Results flagged for a closer look

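Of the 30 named genes, 3 had 1 mouse whose difference lay far from those of the other 5, where chance alone marks about 1 in 20. For Grik1, the log2 difference was 4.203 in the hDLXI56i MouseID-400157, and the nearest other mouse had 2.55. For Htr1f, the same mouse had -4.727, and the nearest other mouse -1.933. For Fut8, the hDLXI56i MouseID-384912 had -0.2544, and the nearest other mouse -1.091. The cause was not tested.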

How the results depend on the processing

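The count of called genes, 56 in the comparison of Ndnf-positive with Ndnf-negative cells, differed between the alternatives, and the cause was not tested. It was 20 with no filter on low values, 25 with mice of at least 2 cells per class, 1 with at least 5 cells (4 mice), 2 in the eHGT_019h mice alone, which is the same as leaving out the hDLXI56i mice (2), and 11 without the eHGT_019h mice. With all mice of at least 3 cells in either class and mouse as a random block it was 92. Averaging log2(CPM + 1) over cells gave 88, of which 41 were higher and 47 lower, against 40 and 16. Leaving out 1 mouse gave 28 to 51, with 28 without MouseID-400156, MouseID-401668 or MouseID-400157 and 31 without MouseID-382159. With no replicate block 52 genes were called, and with limma voom on recovered reads, an alternative added after the data were seen, 54, of which 37 were among the 56. The other alternatives gave 38 to 71. No called gene changed sign in any of them. The difference of Htr3a, which did not pass, became -0.092 with Ndnf at 50 CPM or more, -0.047 without MouseID-400156, -0.25 without MouseID-401668 and -0.55 without the eHGT_019h mice, and ranged from -0.25 to 1.09 over the fits that left out 1 mouse. The shares of cells by enhancer and the genes detected per cell kept their side of the threshold under the alternatives run. The planned count test on recovered reads was not run. Means of 4 to 15 members per mouse limit the precision of low genes, where 1 read in 1 cell is a large part of the value.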

Other observations

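Ndnf was not confined to Lamp5-gated cells. Of 95 cells with Ndnf at 10 CPM or more, 32 lay outside the gates. Lamp5 was under its limit in 21 of them, Adarb2 in 20 and Gad1 in 2, while Sst was at or above its limit in 19 and Slc17a7 in 13, and a cell can fail several gates. Vip and Pvalb put 0 of the 32 outside.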
